A study of Homo sapiens with 6 samples.

Results

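Aldo-keto reductases are enzymes that use NADPH to reduce aldehydes and ketones, among them steroids, prostaglandins, retinal, sugars and reactive lipid aldehydes, to alcohols. Members of the family followed here were AKR1C1, AKR1C2, AKR1C3, AKR1C4, AKR1B1, AKR1B10, AKR1B15, AKR1A1, AKR7A2 and AKR7A3, that is, 10 of the 58735 gene rows in the count table. They were taken by gene name, and the counts of AKR1C1 to AKR1C4 were also summed, because these genes have sequence in common. RNA came from A549, a human lung adenocarcinoma cell line grown in RPMI1640 medium with fetal bovine serum, in 3 libraries that overexpressed IL17D and 3 libraries with the empty vector (control). IL17D, a cytokine of the interleukin-17 family, was delivered by a lentivirus in which the constitutive human PGK promoter drives the open reading frame together with GFP. The sources used here do not say whether a group was 1 clone or a pool, or whether its replicates came from separate transductions or cultures, so the spread between replicates may be technical. IL17D itself had 18 to 34 counts in the control libraries and 26772 to 32155 in the IL17D-overexpressing ones.

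The members were chosen by family name with the comparison of these groups already known: the family was selected on the measured fall of AKR1C2 counts in IL17D-overexpressing cells. Differences of the members between the groups are therefore given as a description, without p-values. How many members passed the threshold of the fit over all genes is given once as a count, from which nothing is read. Libraries held 14319398 to 16521021 counts on genes. Levels are in CPM, a gene's share of the library's counts, after scaling of library sizes by TMM, and differences are log2 fold changes, IL17D-overexpressing against control, with their standard error from edgeR's quasi-likelihood fit. Of the epithelial and alveolar markers checked, KRT8, KRT18 and CDH1 were present, whereas 5 of the 9, NKX2-1, KRT19 and the surfactant genes SFTPA1, SFTPB and SFTPC, stayed under 1 CPM in every library. EPCAM was almost absent, with a mean of 1.05 CPM in control and 0.976 CPM in IL17D-overexpressing libraries. Of 10 leukocyte, fibroblast and endothelial markers, 8 stayed under 1 CPM in every library, and PTPRC and CD3E had no count. The summed level of these 10, most of it COL1A1, was 23.8 to 26.5 CPM in control and 20.4 to 26.1 CPM in IL17D-overexpressing libraries. The summed level of the 9 epithelial markers was 11120 to 11540 CPM and 10800 to 11040 CPM, and CDH1, the gene of E-cadherin, fell from 43.4 ± 2.65 CPM (SD, n = 3) to 35.7 ± 3.32 CPM, with an adjusted p of 0.0306 from edgeR. The part of this shift in the results was not tested. In bulk RNA, fewer cells that express a gene and less of its RNA per cell cannot be told apart.

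In human cells the AKR1C genes and AKR1B10 are among the best known targets of NRF2 (NFE2L2), a transcription factor that is held down by KEAP1 and induces enzymes of antioxidant defence and NADPH supply. A549 cells carry an inactivating KEAP1 mutation, and their NRF2 is constitutively active. AKR1C1 reduces progesterone, AKR1C2 reduces dihydrotestosterone, AKR1C3 makes testosterone and prostaglandin F, and AKR1C4 serves steroid and bile acid metabolism in liver. AKR1B1 is aldose reductase, which turns glucose into sorbitol, AKR1B10 reduces retinal and lipid aldehydes and is often raised in lung cancers of smokers, and AKR1B15 is its close relative. AKR1A1 is aldehyde reductase, and AKR7A2 and AKR7A3 reduce aflatoxin aldehyde, AKR7A2 also succinic semialdehyde.

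The genes lie in clusters. On GRCh38, AKR1C1 (ENSG00000187134, chr10:4963253-4983283), AKR1C2 (ENSG00000151632, chr10:4987400-5018031), AKR1C3 (ENSG00000196139, chr10:5035354-5107686) and AKR1C4 (ENSG00000198610, chr10:5195462-5218949) span 256 kb, and AKR1C2 alone is on the minus strand. AKR1B1 (ENSG00000085662, chr7:134442350-134459284), AKR1B10 (ENSG00000198074, chr7:134527592-134541408) and AKR1B15 (ENSG00000227471, chr7:134549136-134579875) span 138 kb. AKR7A3 (ENSG00000162482, chr1:19282558-19289250) and AKR7A2 (ENSG00000053371, chr1:19303965-19312146) are neighbours within 30 kb, and AKR1A1 (ENSG00000117448, chr1:45550543-45570049) stands alone on the same chromosome.

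Shown are the 150 bases before the start sites of AKR1C1, AKR1C2 and AKR1C3. These genes had nearly the same difference between the groups, as given further on. AKR1C4, which is almost silent here, is shown beside them, and its own difference is uncertain (log2 fold change 0.24, standard error 0.38). A link between these sequences and the levels or differences was not tested. The sequences are from RefSeq (GRCh38.p14), 5′ to 3′ in the direction of transcription, at chr10:4963265-4963414 (+) for AKR1C1, chr10:5003858-5004007 (-) for AKR1C2, chr10:5048631-5048780 (+) and chr10:5094264-5094413 (+) for the first and second start of AKR1C3, and chr10:5196687-5196836 (+) for AKR1C4. Capitals mark a CCAAT box, the letters CCAAT on either strand, here on the opposite strand.
AKR1C1: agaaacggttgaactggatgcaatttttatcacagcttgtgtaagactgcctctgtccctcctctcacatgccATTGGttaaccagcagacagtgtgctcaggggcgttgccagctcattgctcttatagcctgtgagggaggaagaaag
AKR1C2: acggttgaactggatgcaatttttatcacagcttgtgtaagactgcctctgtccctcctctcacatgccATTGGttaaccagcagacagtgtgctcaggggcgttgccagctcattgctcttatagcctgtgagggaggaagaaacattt
AKR1C3 (first start): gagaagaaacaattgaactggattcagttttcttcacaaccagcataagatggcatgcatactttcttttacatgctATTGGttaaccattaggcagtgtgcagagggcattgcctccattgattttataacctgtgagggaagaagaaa
AKR1C3 (second start): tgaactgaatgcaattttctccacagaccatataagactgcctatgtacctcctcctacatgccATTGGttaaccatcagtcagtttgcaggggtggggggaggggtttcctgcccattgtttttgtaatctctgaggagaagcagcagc
AKR1C4: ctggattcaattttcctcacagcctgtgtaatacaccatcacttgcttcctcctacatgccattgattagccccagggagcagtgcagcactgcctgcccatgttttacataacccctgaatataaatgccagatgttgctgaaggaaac

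Over the 250 bases before the start, AKR1C1 and AKR1C2 were identical at 245 of 246 aligned bases (99.6%). AKR1C3 matched AKR1C1 at 76.8% of aligned bases from its first start and at 78.6% from its second, and AKR1C4 matched AKR1C1 at 68.1%. All 4 starts of AKR1C1, AKR1C2 and AKR1C3 held 1 CCAAT box in this window, between 73 and 86 bases before the start, whereas AKR1C4 held none. Outside the AKR1C genes, 1 of the 2 starts of AKR1B1 held a CCAAT box as well, at 98 bases before the start, so that 5 of 11 member starts had it, and 32.0% of all 35116 promoters in the RefSeq table held at least 1. The core letters of the antioxidant response element bound by NRF2, TGACNNNGC on either strand, were in none of the AKR1C windows and in 10.9% of all promoters. Among the members they occurred only upstream of AKR7A2, and the AP-1 letters TGANTCA, which were in 6.6% of all promoters, were upstream of no member. Promoters were found for 8 of the 10 members, and motif counts refer to the 250 bases alone. AKR1B10 and AKR1B15 were not matched.

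Because the counts of close relatives can borrow reads from each other, the sequence in common was measured on GENCODE 29 transcripts. Of the 31-base stretches of AKR1C2, 47.3% also occur in AKR1C1, and of those of AKR1C1, 35.1% occur in AKR1C2. With 100-base stretches these shares were 22.1% and 16.5%. AKR1C3 had only 7.0% of its 31-base stretches in common with other members and AKR1C4 10.8%. AKR1B10 had 18.8% in common with AKR1B15, and AKR1B15 had 10.3% in common with AKR1B10, but with 100-base stretches these fell to 0.9% and 0.5%. AKR7A3 had 31.7% in common with AKR7L, a related gene that is not a member. The levels of AKR1C1 against AKR1C2, of AKR1B15 beside the far more abundant AKR1B10 and of AKR7A3 are thus uncertain, while AKR1C3 and AKR1B1 (1.5% in common with other members) rest mostly on sequence of their own among the members. With all other genes counted, the 31-base shares were 13.9% for AKR1B1 and 31.3% for AKR1B10. With 100-base stretches they were 0.0% and 1.6%.

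**Figure D1:**
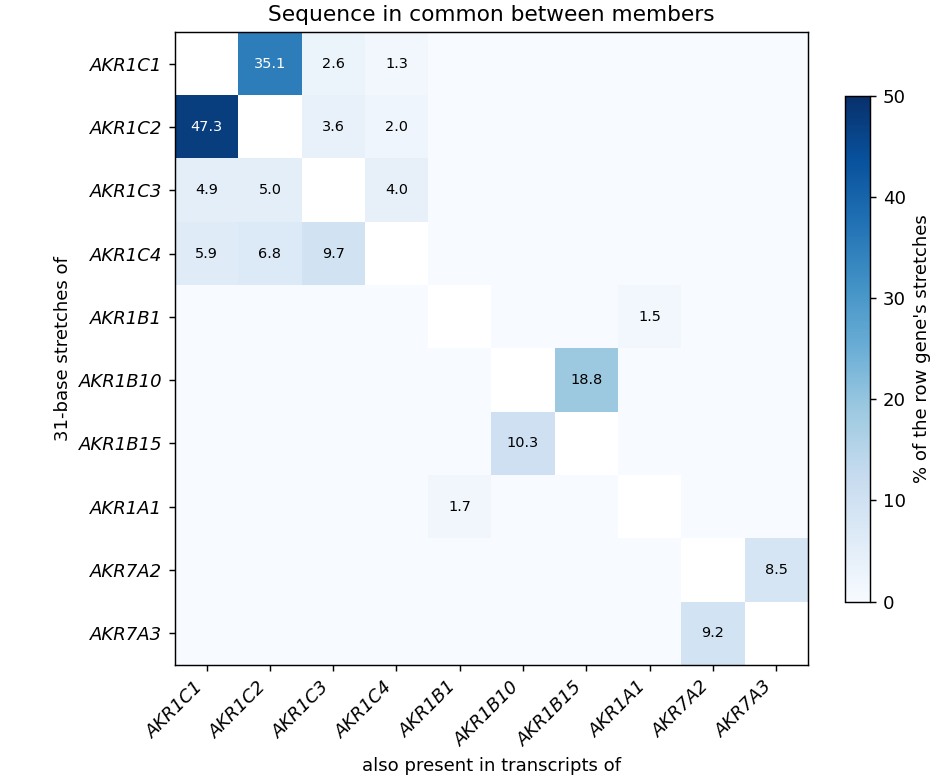
Share of each member's 31-base transcript stretches (rows, in %) that also occur in transcripts of another member (columns), with empty cells under 0.05%. The pair AKR1C1 and AKR1C2 stands out with 35.1% and 47.3%, followed by AKR1B10 in AKR1B15 with 18.8%.

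The family spanned more than 3 orders of magnitude in level. By mean CPM, AKR1B10 was at rank 23 and AKR1C2 at rank 33 of the 15754 genes tested, AKR1C3 at rank 78, AKR1B1 at rank 164 and AKR1C1 at rank 512. AKR1A1, AKR7A2 and AKR1B15 lay at ranks 4219, 6115 and 7731, and AKR1C4 and AKR7A3 near the bottom, at 13789 and 15641. Together the 10 genes took 0.720 to 0.752% of all counts in control libraries and 0.613 to 0.619% in IL17D-overexpressing ones.

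Per length (RPKM, CPM divided by the length of the gene's exons in kilobases), the order of levels in control cells was AKR1B10 with 1703 ± 20.6 (SD, n = 3), AKR1C2 with 329 ± 12.2, AKR1C3 with 256 ± 10.2, AKR1B1 with 182 ± 4.63 and AKR1C1 with 35.8 ± 0.628. Below these came AKR7A2 with 17.8 ± 0.916 RPKM, AKR1A1 with 16.8 ± 0.353, AKR1B15 with 6.44 ± 1.014, AKR1C4 with 0.610 ± 0.349 and AKR7A3 with 0.346 ± 0.268. In IL17D-overexpressing cells the levels were 1447 ± 23.6, 268 ± 2.83, 212 ± 2.23, 165 ± 3.09 and 29.03 ± 0.367 RPKM for the first 5, in the same order. Over all 6 libraries the ranges of AKR7A2 (16.8 to 19.2 RPKM) and AKR1A1 (15.8 to 18.6 RPKM) overlapped, as did those of AKR1C4 and AKR7A3. AKR1C2 and AKR1C3 also touched, since AKR1C2 in IL17D-overexpressing cells came down to 265 RPKM and AKR1C3 in control cells reached 268 RPKM, but within each library AKR1C2 was higher. The length used for each gene is the union of the exons of all its transcripts, and a shorter length would raise its level. It was 8765 bases for AKR1C1, 6461 for AKR1C2, 4532 for AKR1C3, 3660 for AKR1B1 and 1744 for AKR1B10. The order and gaps in RPKM thus depend on these lengths. In CPM, AKR1B10 had 2969 and AKR1C2 2124 in control cells.

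AKR1C1, AKR1C2 and AKR1C3 were lower in IL17D-overexpressing cells by nearly the same proportion. AKR1C2 had 2212, 2061 and 2098 CPM in control replicates 1, 2 and 3, and 1748, 1712 and 1736 CPM in the IL17D-overexpressing replicates. Its lowest control library lay well above its highest IL17D-overexpressing library, and its mean was lower by 392 CPM, a difference of -18.4%. AKR1C1 had 319.5, 308.5 and 313 CPM in control and 257, 251 and 255 CPM in IL17D-overexpressing libraries. The groups did not overlap, and the log2 fold change was -0.30 (standard error 0.035), against -0.29 (standard error 0.027) for AKR1C2. As 35.1% of the 31-base stretches of AKR1C1 occur in AKR1C2, reads of AKR1C2 could have been counted on AKR1C1. The difference of AKR1C1 may thus not be separate from that of AKR1C2.

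AKR1C3, the member that makes testosterone and prostaglandin F, had 1215, 1136 and 1134 CPM in control and 949.8, 968 and 967 CPM in IL17D-overexpressing libraries, again without overlap (log2 fold change -0.27, standard error 0.029). AKR1C4 had 11, 13 and 31 counts in control and 21, 21 and 23 counts in IL17D-overexpressing libraries. These groups overlapped, and control replicate 3 held both the highest count and most of the spread. Its log2 fold change of 0.24 had a standard error of 0.38, and it became 0.81 (standard error 0.45) without control replicate 3.

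The summed count of AKR1C1 to AKR1C4 does not depend on how reads were divided among these genes. It stood at 3748, 3507 and 3547 CPM in control and at 2957, 2932 and 2959 CPM in IL17D-overexpressing libraries, and the log2 fold change was -0.29 (standard error 0.025). The control libraries spread more, with an SD of 129 CPM against 14.9 CPM. The make-up of the sum hardly differed between the groups. AKR1C2 took 59.0% ± 0.193 (SD, n = 3) of the AKR1C counts in control and 58.7% ± 0.371 in IL17D-overexpressing libraries, AKR1C3 took 32.3% ± 0.257 and 32.6% ± 0.445, and AKR1C1 took 8.72% ± 0.167 and 8.63% ± 0.0717. For each of these 3 shares the ranges of the groups overlapped.

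**Figure D2:**
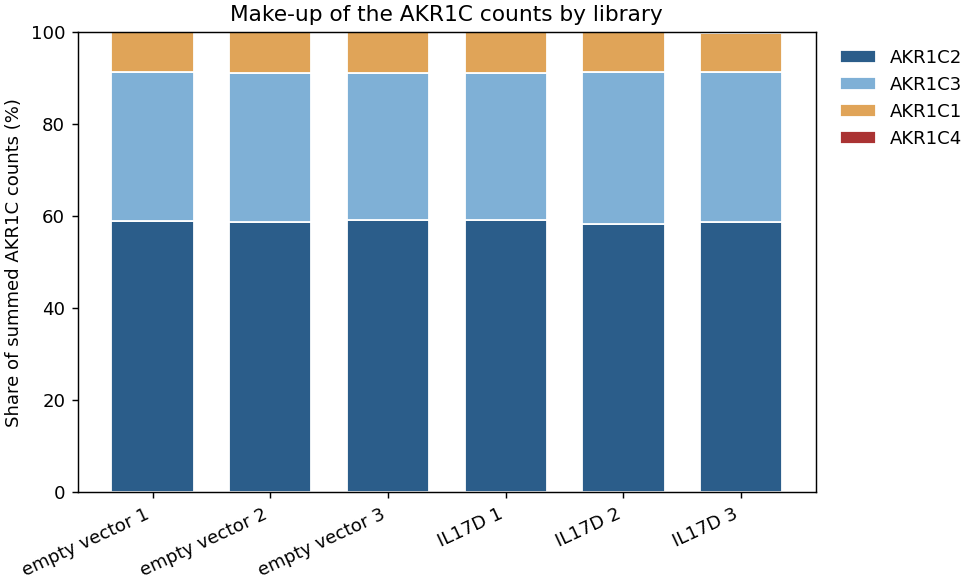
Share of the summed AKR1C counts (in %) taken by each AKR1C gene in each of the 6 libraries. AKR1C2 takes 58.4 to 59.2%, AKR1C3 32.0 to 33% and AKR1C1 8.53 to 8.83% in every library, and AKR1C4 (at most 0.0545%) is too thin to see.

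In the chromosome 7 cluster, AKR1B10 showed the largest difference of any member in absolute terms. It had 2984, 2928 and 2995 CPM in control and 2482, 2564 and 2524 CPM in IL17D-overexpressing libraries, a mean difference of -446 CPM or -15.0%, without overlap. Its log2 fold change of -0.235 (standard error 0.024) was smaller in size than that of AKR1C1, AKR1C2 and AKR1C3. However, the ratio of AKR1B10 to the summed AKR1C counts overlapped between the groups. This ratio was 0.796 to 0.8445 in control and 0.839 to 0.874 in IL17D-overexpressing libraries. AKR1B1, the aldose reductase gene, had 682, 648.5 and 665 CPM in control and 597.5, 598 and 617.5 CPM in IL17D-overexpressing libraries. Here the groups were separate but closer, and the log2 fold change was -0.14 (standard error 0.031). Accordingly, the ratio of AKR1B10 to AKR1B1 counts was 4.37 to 4.52 in control and 4.09 to 4.29 in IL17D-overexpressing libraries.

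AKR1B15 had 299, 301 and 403 counts in control and 322, 349 and 259 counts in IL17D-overexpressing libraries. These groups overlapped, their log2 fold change was -0.12 (standard error 0.10), and control replicate 3 was the highest. The same library was also the highest for AKR1C4 and for AKR7A3, which are genes of low level. AKR1B15 thus did not show the separation that its neighbour AKR1B10 showed. Its standard error is too wide to tell its log2 fold change from the -0.235 of AKR1B10.

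The members outside these clusters did not separate the groups. AKR1A1 had 52.7, 51.3 and 53.5 CPM in control and 50.9, 49.4 and 58.2 CPM in IL17D-overexpressing libraries, and the log2 fold change came to 0.0063 (standard error 0.063). AKR7A2 had 32.0, 33.05 and 29.9 CPM in control and 33.1, 34.2 and 32.9 CPM in IL17D-overexpressing libraries, and the log2 fold change came to 0.080 (standard error 0.073). AKR7A3, with 5, 5 and 18 counts in control and 11, 5 and 10 counts in IL17D-overexpressing libraries, had too few counts to show a difference of the size seen in AKR1C2 (log2 fold change -0.11, standard error 0.54).

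**Figure D3:**
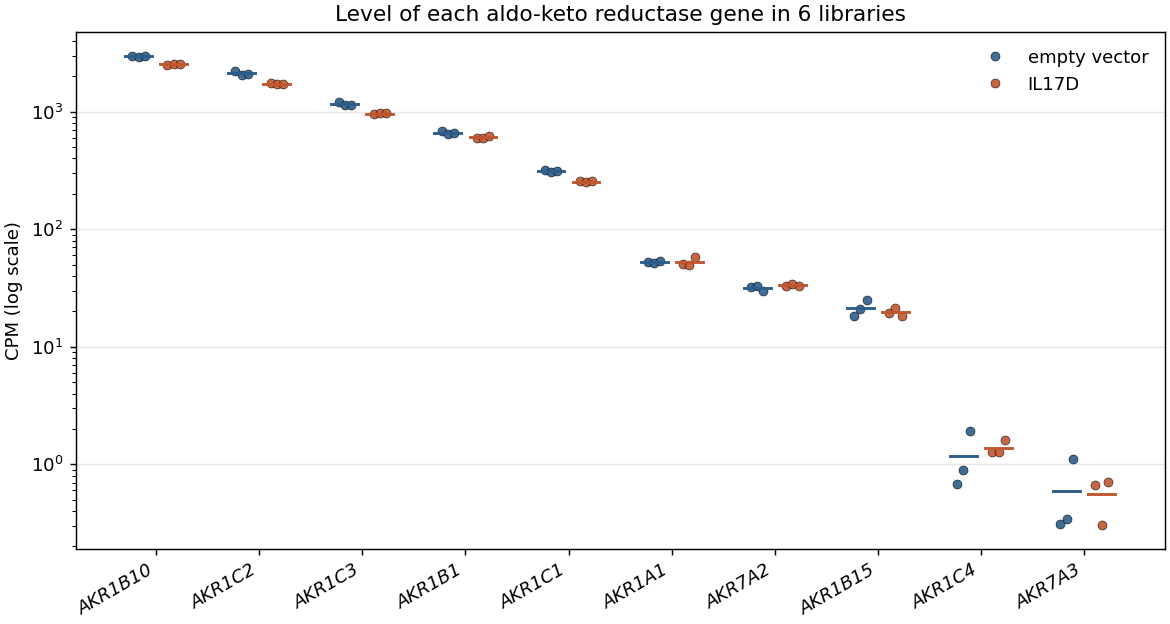
Level of each member (CPM, log scale) in the 3 control (empty vector) and the 3 IL17D-overexpressing libraries, ordered by control level, with points for libraries and short lines for group means. The groups separate for the 5 genes on the left, AKR1B10, AKR1C2, AKR1C3, AKR1B1 and AKR1C1, and overlap for the other 5.

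All 10 members passed edgeR's filter on low counts. At an adjusted p under 0.05 over all 15754 tested genes, 5 members were called lower (AKR1C1, AKR1C2, AKR1C3, AKR1B10 and AKR1B1) and the other 5 were not called, where 0.908% of all tested genes were called lower, 0.673% higher and 1.58% in either direction. The same 5 were the members whose groups did not overlap, which was the case in this direction for 8.31% of tested genes and in the opposite one for 7.48%. Without control replicate 1, IL17D replicate 1 or IL17D replicate 2, AKR1B1 lost its call and 4 members were called lower. Nothing is read from these counts, since this comparison chose the family. The genes called are also the 5 most abundant members, for which small differences are measured most precisely. The median log2 fold change of the 10 members was -0.13, beside -0.00044 over all tested genes. Summed over the members, the level was 7341 ± 165 CPM (SD, n = 3) in control and 6183 ± 38.0 CPM in IL17D-overexpressing cells, a difference of -1158 CPM, to which AKR1C1 to AKR1C4 contributed -651 CPM.

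**Figure D4:**
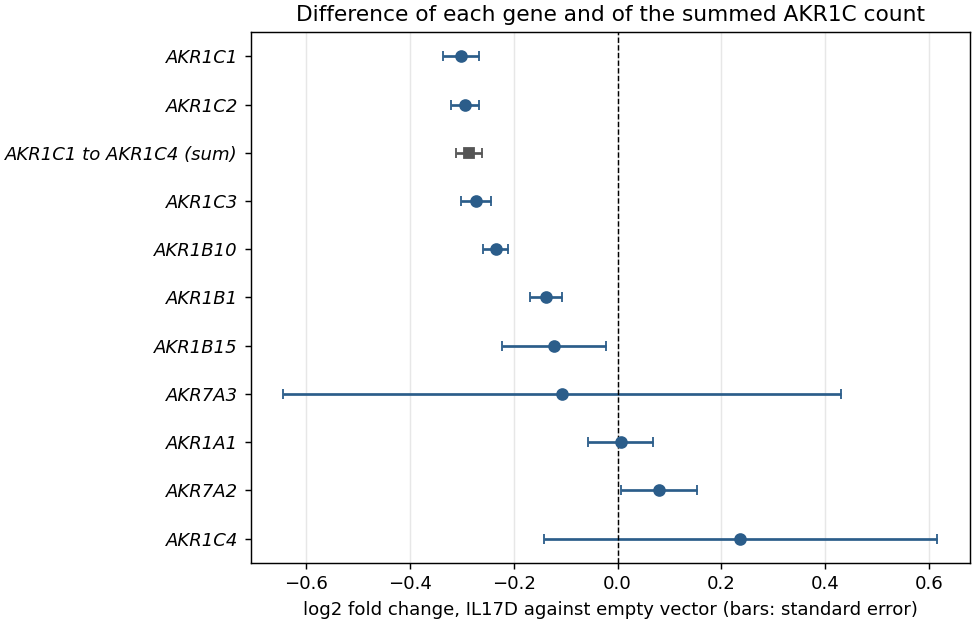
Log2 fold change of each member and of the summed AKR1C count (square), IL17D-overexpressing against control, with the standard error from edgeR as bars. AKR1C1, AKR1C2, AKR1C3 and AKR1B10 lie between -0.30 and -0.23, AKR1B1 at -0.14, and the bars of AKR7A3 (0.54) and AKR1C4 (0.38) are the widest.

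Other rows of the family were few. Of 18 further rows whose name begins with AKR, 9 had no count in any library, AKR1D1 (a steroid reductase of bile acid synthesis) among them, and 3 passed the filter. AKR1E2 had 13.8 ± 1.32 CPM (SD, n = 3) in control and 12.7 ± 0.461 CPM in IL17D-overexpressing cells, and the pseudogene AKR1C7P 3.60 ± 0.538 and 3.47 ± 0.711 CPM. Of these 3, 0 were called by edgeR, DESeq2 or limma voom, and 0 had an unadjusted p under 0.05 in any of them. The potassium channel beta subunits, which share the aldo-keto reductase fold, were not called by any of these tools either (0 of 3, with 1 at an unadjusted p under 0.05 in each), with KCNAB2 at 12.4 ± 0.522 and 9.79 ± 0.593 CPM (adjusted p = 0.197 in edgeR's test) and KCNAB3 at 3.68 ± 0.695 and 3.74 ± 0.452 CPM.

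Rows within 500 kb of the AKR1C cluster were compared to see whether the difference extended beyond the cluster. Of 32 such rows, 12 passed the filter and 0 were called by edgeR, DESeq2 or limma voom, each of which gave 1 an unadjusted p under 0.05. The most abundant were FAM208B, with 145 ± 10.2 CPM (SD, n = 3) in control and 160 ± 4.01 CPM in IL17D-overexpressing cells (log2 fold change 0.14), and NET1, with 134 ± 1.90 and 129.6 ± 2.18 CPM (log2 fold change -0.048). FAM208B was higher with an adjusted p of 0.132 in edgeR's test over all libraries and of 0.0088 without control replicate 3. Their standard errors were 0.045 and 0.042. Of the 12, 10 had a log2 fold change below 0, and the median was -0.29. Outside the span of AKR1C1 to AKR1C4, 8 of 10 were below 0, with a median of -0.22. The values furthest below 0 came from rows of few counts. The lowest, -0.74, was that of a row at 1.38 CPM in control, with a standard error of 0.40. These medians therefore say little about a difference beyond the cluster. The 2 tested rows inside the span of AKR1C1 to AKR1C4 both overlap AKR1C2, so that reads of AKR1C2 could have been counted on them.

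For the pathway around the family, 8 lists of other genes were examined, 124 genes in all, of which 102 were tested. The lists were chosen with earlier results of these data known, so the counts of called genes are a description. In edgeR's test with Benjamini-Hochberg adjustment over all tested genes, 10 were lower and 2 higher, where 0.908% and 0.673% of all tested genes were. These shares are not a like background, since several of the called genes are very abundant and small differences are measured most precisely in such genes. Of these 12 genes, 6 kept the call under all 12 alternative settings, among them ABCC3, ALDH3A1, GPX2, TKT and ALDH3B1. The other 6 lost it in at least 1 of them.

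Of 28 tested NRF2 targets outside the family, 6 were lower and the others were not called, and 23 had a log2 fold change below 0, with a median of -0.074. ABCC3, an efflux pump for glucuronides and bile salts, fell from 584 ± 5.44 to 491 ± 7.25 CPM (SD, n = 3 each; log2 fold change -0.25, adjusted p = 1.21e-06 from edgeR). ALDH3A1, which oxidises aldehydes, fell from 1509 ± 74.7 to 1296 ± 29.02 CPM (log2 fold change -0.22, adjusted p = 1.12e-05 from edgeR). GPX2, a glutathione peroxidase of epithelia, fell from 404 ± 9.26 to 349 ± 2.11 CPM (log2 fold change -0.21, adjusted p = 7.54e-05 from edgeR). In all 3 genes, every IL17D-overexpressing library lay below every control library.

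The ferritin light chain FTL (log2 fold change -0.11), UGDH, which makes UDP-glucuronate (-0.13), and the glutathione conjugate pump ABCC1 (-0.13) were also lower, with adjusted p of 0.0165, 0.0275 and 0.0373 in edgeR's test. None of these 3 calls remained without IL17D replicate 1 or without IL17D replicate 3, where the list had 3 called genes. The log2 fold changes in these 2 fits were -0.094 and -0.11 for FTL, -0.11 and -0.13 for UGDH, and -0.12 and -0.11 for ABCC1. Fewer genes were called lower in all with a library left out: 79 and 76 in these fits, beside 143 with all libraries. FTL also lost its call without control replicate 3, UGDH without control replicate 2 or 3, and ABCC1 without control replicate 1 or 2. In contrast, TXNRD1, thioredoxin reductase and with FTL the most abundant of the list, had 1868 ± 41.8 and 1875 ± 27.9 CPM (log2 fold change 0.0057, standard error 0.026). NQO1, a quinone reductase often used as the marker of NRF2 activity and named here after its values were seen, had 1481 ± 15.4 and 1494 ± 25.1 CPM (log2 fold change 0.013, standard error 0.026).

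Among the NRF2 regulators, 1 of 8 was called. MAFK, a small MAF protein that pairs with NRF2, rose from 325 ± 27.3 to 364 ± 21.5 CPM (log2 fold change 0.17, adjusted p = 0.0395 from edgeR), although its groups overlapped. The call was lost with DESeq2 (adjusted p = 0.542) and without control replicate 1, control replicate 3, IL17D replicate 1 or IL17D replicate 3 in edgeR. NFE2L2 and KEAP1, named after their values were seen, had log2 fold changes of 0.081 (standard error 0.052) and -0.00092 (standard error 0.050). SQSTM1, which binds KEAP1, had 619 ± 9.11 and 599 ± 8.64 CPM (adjusted p = 0.601 from edgeR).

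The aldo-keto reductases draw on NADPH, and the 10 genes of NADPH supply had a median log2 fold change of -0.096. TKT, transketolase of the pentose phosphate pathway, fell from 2064 ± 57.5 to 1893 ± 20.8 CPM (SD, n = 3 each; log2 fold change -0.12, adjusted p = 0.00492 from edgeR). Its groups did not overlap.

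Of 16 tested aldehyde dehydrogenases, which oxidise the aldehydes that aldo-keto reductases reduce, 3 were lower and the others were not called, with a median log2 fold change of -0.086. Besides ALDH3A1, which is also on the NRF2 list, ALDH3B1 fell from 342 ± 4.35 to 271 ± 2.92 CPM (log2 fold change -0.33, standard error 0.034, adjusted p = 3.11e-08 from edgeR). This was larger in size than for any aldo-keto reductase called lower, but AKR1C1 was close at -0.30 (standard error 0.035). ALDH1A1, retinal dehydrogenase, fell from 4790 ± 68.0 to 4500 ± 80.5 CPM (log2 fold change -0.090, adjusted p = 0.0302 from edgeR). Its call was lost without control replicate 3 and without each of IL17D replicates 1, 2 and 3.

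Enzymes that share steroid and prostaglandin substrates with AKR1C1, AKR1C2 and AKR1C3 were called in 1 case only. Of 14 tested steroid enzymes 0 were called by edgeR, DESeq2 or limma voom, and each tool gave 1 an unadjusted p under 0.05. The most abundant were HSD17B10, with 85.3 ± 4.49 CPM in control and 88.7 ± 5.32 CPM in IL17D-overexpressing cells (adjusted p = 0.757 from edgeR), and HSD17B4, with 85.1 ± 1.55 and 76.4 ± 1.59 CPM (adjusted p = 0.116 from edgeR). Of 18 tested short-chain and alcohol dehydrogenases 0 were called by any of these tools. At an unadjusted p under 0.05, 2 were lower and 2 higher in edgeR, 1 lower and 2 higher in DESeq2 and 2 lower and 3 higher in limma voom. The most abundant were ADH5 at 119 ± 1.22 and 117 ± 2.85 CPM and RDH11 at 91.4 ± 5.60 and 87.9 ± 3.74 CPM. Of 8 tested prostaglandin enzymes 1 was called: PTGS2, the inducible cyclooxygenase, rose from 27.96 ± 0.569 to 34.2 ± 2.84 CPM (log2 fold change 0.29, adjusted p = 0.042 from edgeR). This call was lost without each control replicate in turn, without IL17D replicate 2 or 3, with DESeq2 (adjusted p = 0.0788) and with limma voom (adjusted p = 0.0513). At an unadjusted p under 0.05, 3 prostaglandin enzymes were lower and 1 was higher in each of edgeR, DESeq2 and limma voom. PTGES3 and PTGR1, the most abundant of that list, had log2 fold changes of 0.013 (standard error 0.032) and -0.064 (standard error 0.035).

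**Figure D5:**
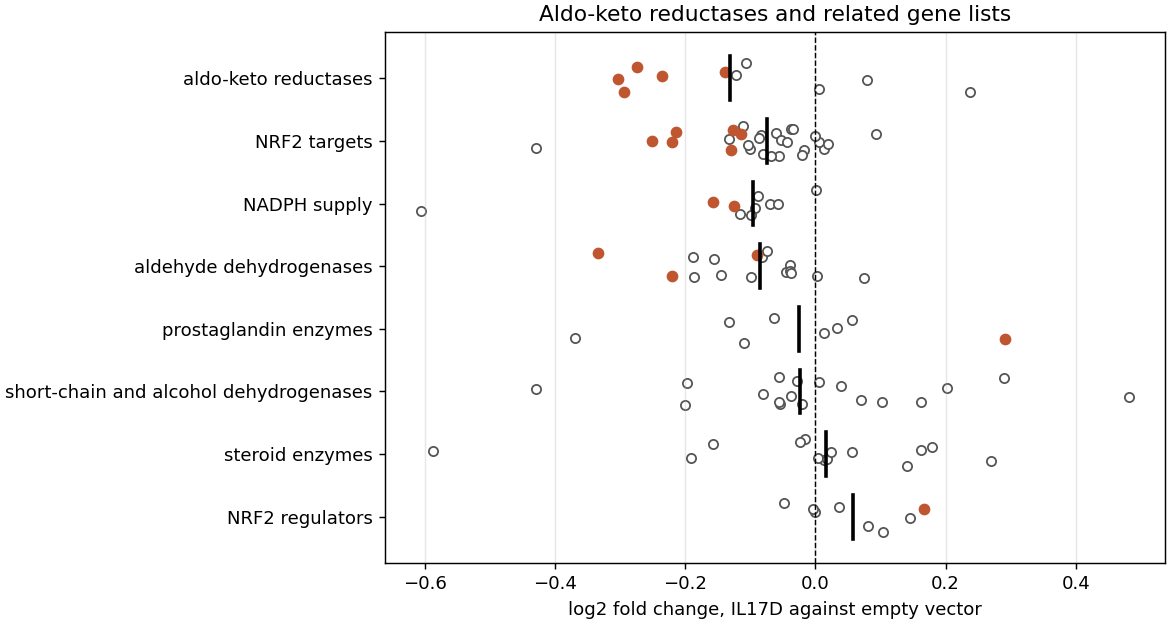
Log2 fold change of every tested gene among the aldo-keto reductases and 7 related lists, IL17D-overexpressing against control, filled where the adjusted p from edgeR was under 0.05, with a black line at each median. Filled points lie left of 0 for NRF2 targets, NADPH supply and aldehyde dehydrogenases, and MAFK and PTGS2 are the filled points to the right.

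The genes whose profile over the 6 libraries was most like that of the AKR1C sum were HFE, ADAMTS10, ARRB2, FADS2 and ABCC3. Likeness was measured as the root mean square difference of log2 CPM after centring each gene on its own mean, among 9733 genes with a mean of at least 10 CPM. It was 0.018 for HFE, a regulator of iron uptake (33.6 ± 1.23 CPM in control and 27.95 ± 0.488 CPM in IL17D-overexpressing cells), 0.023 for ADAMTS10, 0.0235 for ARRB2, 0.028 for FADS2, a fatty acid desaturase, and 0.030 for ABCC3. AKR1C3 and AKR1C1 themselves stood at 0.015 and 0.019 from the sum they belong to, AKR1B10 at 0.041 and AKR1B1 at 0.077. By this measure ABCC3 was the listed NRF2 target outside the family closest to the AKR1C sum, and it was nearer than AKR1B10. The measure takes in the difference between the groups, on which the family was selected, so genes with a like log2 fold change lie close. It was -0.25 for ABCC3 and -0.235 for AKR1B10, beside -0.29 for the sum. Likeness is thus a description, and a cause in common was not tested.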

How the data were processed

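The authors deposited 1 table of raw counts of reads per gene for 6 libraries, without normalization. The submitters' processing notes name Bowtie2 and the build hg38, and the counting tool is not given in the sources used here. Gene coordinates and lengths equalled GENCODE 29 for 58724 of 58735 rows, all members included. No per-sample column was left unused (0). Groups came from the sample titles.

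Counts were filtered with filterByExpr, scaled by TMM and fitted with edgeR 4.0.16 (glmQLFit, glmQLFTest) in R 4.3.3, with Benjamini-Hochberg adjustment over 15754 genes. Alternatives used DESeq2 1.42.0, limma 3.58.1, other filters, the replicate block and each library left out. In simulated data for this comparison with 15754 genes, edgeR called 60% of 100 genes changed by 0.3 in log2 and 95% of 100 changed by 0.6. The changed genes were drawn only from those above a minimum count. Every gene was given the same variation between replicates beyond counting error. The rates thus do not cover members of few counts, AKR1C4 and AKR7A3. Counting error sets a limit of 3 counts, 0.182 to 0.210 CPM, for a count of 0. Fold changes are relative to the typical gene, and the other scalings tried moved them by -0.0065 to 0.0015 in log2.

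The members and gene lists were chosen with earlier results of these data known. Named were all members, each list's called genes and its 2 most abundant, and the 5 genes closest to the AKR1C sum, apart from an item that is not reported here. Stretches in common were counted on either strand with Python 3.11.15.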

Additional observations from a re-analysis of the deposited data

How the results depend on the processing

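Over 12 alternatives, the log2 fold change of the AKR1C sum stayed between -0.31 and -0.26, that of AKR1B10 between -0.25 and -0.22 and that of AKR1B1 between -0.16 and -0.12. The number of members called lower was 4 or 5, and AKR1B1 was the one lost, without control replicate 1, IL17D replicate 1 or IL17D replicate 2. The log2 fold change of 4 uncalled members turned sign in at least 1 alternative: AKR1C4 ran from -0.044 to 0.81, AKR1B15 from -0.22 to 0.0089, AKR1A1 from -0.064 to 0.052 and AKR7A3, which 11 alternatives could fit, from -0.42 to 0.75. AKR7A2 ran from 0.040 to 0.11. With DESeq2's Wald test, 0 NRF2 regulators and 0 prostaglandin enzymes were called, and with limma voom 0 prostaglandin enzymes. With 1 library left out, called NRF2 targets numbered 3 to 7, NRF2 regulators 0 to 1, prostaglandin enzymes 0 to 1 and AKR1C neighbours 0 to 1. Among uncalled list genes, the sign of the log2 fold change turned with a library left out: TXNRD1 ran from -0.0065 to 0.025, PTGES3 from -9.9e-05 to 0.028, KCNAB3 from -0.11 to 0.14 and AKR1C7P from -0.22 to 0.071. The causes were not tested. No other count over the members or a list moved by over 1.5 times.

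The replicate number did not pair the samples: deviations of libraries with the same number correlated at 0.010, -0.012 and -0.015, within the -0.041 to 0.054 of differently numbered ones. With the replicate block, the AKR1C sum had a log2 fold change of -0.29, 5 members were called lower, and 157 genes in all were lower and 115 higher, beside 143 and 106 without it. Of the list genes named, ABCC1 (adjusted p = 0.0507) and ALDH1A1 (adjusted p = 0.0722) lost their edgeR call with the block, and no other did. Genes called by edgeR in all numbered 143 lower and 106 higher, by DESeq2 105 and 82 and by limma voom 131 and 99, and 76 to 138 lower and 69 to 129 higher with 1 library left out.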
